A study of Mus musculus with 2 samples.

Results

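H3K9me2 was found on mainly 1 side of the centre at 296 autosomal regions, 1.24% of the 23946 regions in the deposited table. The table gives H3K9me2 signal, measured by chromatin immunoprecipitation with sequencing of the DNA (ChIP-seq), in 50 bins of 200 bp around each region. For every region on chromosomes 1 to 19 the signal of both libraries was summed over the bins from 1000 to 5000 bp on the left and on the right of the centre. A region was taken when the sides together held a signal of at least 30 and the larger side held at least 3 times the smaller. Of 23339 autosomal regions, 3229 reached the minimum, and 296 of these (9.17%) met the 3-fold rule. The other 2933 serve as comparison regions. Each region was turned so that its larger side, called the high side, lay on the left. Because the choice of regions and their direction came from the signal itself, the levels of the high and the low side are a description.

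The cells were MC1-ZE7 mouse embryonic stem (ES) cells, a line of the strain background MC1 (129S6/SvEvTac), grown without feeders in serum and LIF and sorted by Emerald fluorescence. The groups were Emerald-negative cells and the Emerald-positive high fraction, described by the series as Zscan4 negative and positive, with 1 library each. Both came from the same line and were precipitated with the H3K9me2 antibody Abcam ab1220. What drives Emerald is not given in the labels, no library from another ES line was used here, and no expression values were used here to check the sort.

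H3K9me2 is placed on histone H3 mainly by the methyltransferases G9a and GLP and is removed by demethylases such as those of the KDM3 family. It covers broad stretches of silent euchromatin and lamina-associated chromatin and is low at active promoters and enhancers. G9a and GLP are needed in ES cells to silence genes and some endogenous retroviruses. A region with the mark on only one flank could lie where a marked stretch ends, or beside a short marked patch. Zscan4 marks a transient state of ES cells in which telomeres lengthen and genes of the 2-cell embryo are expressed. Gene names are not part of the table, so regions are named by their mm9 position.

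The windows of the one-sided regions held 7953 recovered reads of the Emerald-positive library and 9464 of the Emerald-negative library. A recovered read is the deposited signal divided by the smallest step of that library, 1.12 for Emerald-positive and 0.902 for Emerald-negative cells. The median window held 20 reads of the Emerald-positive library (range 8 to 229) and 24 of the Emerald-negative library (range 4 to 279). Intervals below are exact binomial 95% intervals. Those of read ratios cover counting error only, since without molecular identifiers copies of 1 molecule count as separate reads. Those of shares count each region as 1 trial, although regions of the same libraries are not replicates and overlapping windows share reads. With 1 library per population no test between populations was possible.

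All windows ran in the direction of rising coordinates. Of 1247 pairs of overlapping windows with enough reads, all 1247 matched best with both windows read in ascending order, with a median correlation of 0.947. The left side is therefore the side of lower coordinates. The high side lay at lower coordinates in 152 and at higher coordinates in 144 of the one-sided regions.

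On the high side the one-sided regions held a median signal of 31.1 (quartiles 27.3 and 40.7), and on the low side 6.52 (4.67 and 8.30). For a given total the 3-fold rule itself caps the low side, so its level is no separate finding. Over all 23946 regions the median was 8.98 on the larger and 4.04 on the smaller side. The comparison regions held 22.0 and 15.3. The total over both sides did not separate the sets: its median was 36.8 in each. Among 291 one-sided regions with signal on the low side, the side ratio had a median of 4.93 (quartiles 3.63 and 7.18, highest 81.5). It was at least 5 in 146 and at least 10 in 59 of the 296 regions, while 96 lay between 3 and 4. If the reads of each of the 3229 regions had been halved evenly at random, the exact binomial sum gives 8.42 regions past the 3-fold rule.

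**Figure D1:**
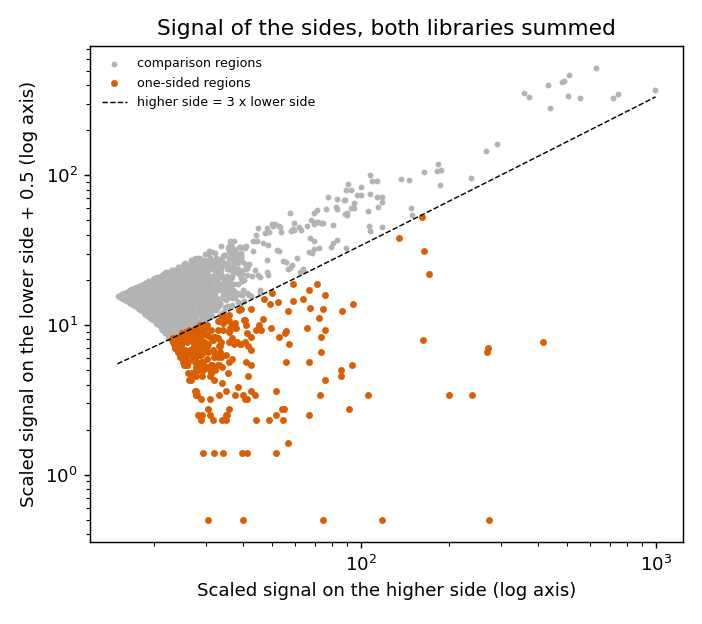
Scaled signal on the higher side against the lower side of each region, both libraries summed, on log axes with 0.5 added to the lower side. Orange points are the 296 one-sided regions, grey points the 2933 comparison regions, and the dashed line marks the 3-fold rule; the bottom row of orange points holds the 5 regions with no read on the low side.

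In most one-sided regions the reads of the high side were spread over many bins. The median region had reads in 14 of the 20 bins of the high side and in 5 of the 20 bins of the low side, against 13 and 10 in comparison regions. The high sides of one-sided regions also held more reads, by the rule (median 31 against 22), so these bin counts do not compare breadth. The highest bin held a median of 18.3% of the high side in one-sided and 16.7% in comparison regions. The nearer and the farther 2000 bp of the high side differed by less than 3-fold in 208 regions (70.3%). In 40 regions (13.5%) the farther part, and in 48 (16.2%) the nearer part, held at least 3 times the other. These shares were 4.64% and 3.68% in comparison regions. At 18 one-sided regions the highest bin alone held at least 50% of the high side, and 24 regions had over 100 reads. Neither was counted in comparison regions. There the highest bin held up to 66.9% of the high side and a window up to 1712 reads, against 97.5% and 508 in one-sided regions.

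Among the 10 most heavily read one-sided regions, the ratio of Emerald-positive to Emerald-negative signal had an interval that holds 1 in all but 2, given in the next paragraph. At chr8:72078339-72078839 the high side had 181 reads of the Emerald-positive and 235 reads of the Emerald-negative library, and the low side had 4 and 3. The reads filled all 20 bins of that high side. At chr17:3083410-3084832 the high side had 124 and 143 reads, again over 20 bins, and the low side had 3 and 3. The best single step there lay before the region, 1400 bp from its centre on the high side. At chr13:3376954-3377581 the high side had 115 and 121 reads and the low side 1 and 2, the largest side ratio of all regions with signal on both sides. At chr5:15176661-15177169 the high side had 91 and 108 reads and the low side 1 and 2.

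The 2 regions whose interval does not hold 1 had reads in fewer bins. At chr8:27077731-27078705 the high side had 103 and 171 reads in only 9 bins, and the low side 1 and 6, and its scaled ratio of Emerald-positive to Emerald-negative was 0.748 (0.580 to 0.961). At chr13:13955209-13956406, with 94 and 73 reads in 11 bins, 1 bin held 54.5% of the high side, and the ratio was 1.60 (1.17 to 2.20). At chr16:3349892-3351627 the centre held more reads (134 and 145) than either side (67 and 95, then 19 and 34). Counting all bins up to the centre turned its direction, with a log2 side ratio of -0.13. The rest of the 10 most-read regions were chr18:3000125-3000648, described next, chr2:151319984-151320611 (167 reads on the high and 31 on the low side, with 19 bins filled) and chr4:146899025-146900340 (136 and 37, with 20 bins filled).

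No read fell on the low side of 5 regions, of which those on chromosomes 6 and 18 (79302494) were singled out after their values were seen. They were chr18:3000125-3000648 with 272 reads on the high side, chr2:181653284-181653498 with 116, chr4:146961207-146961520 with 74, chr6:117870506-117872091 with 41 and chr18:79302494-79303249 with 30. The first starts at 3000125, the lowest start of any autosomal region in the table, and its empty side lies below that position. Whether reads can be assigned to sequence there at all was not checked, so its 0 reads and its side ratio do not show absence of the mark. At the other regions a count of 0 allows up to 3 reads per library. The neighbourhood of chr4:146961207 was heavily read on both sides, with a scaled signal of 136 at the nearest region 10 to 50 kb away on the high side and 99.4 on the low side.

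Among regions with at least 60 reads over both sides, 2 more of the 10 with the largest side ratios have not been named. At chr4:118215625-118217556 the high side held 38 and 54 reads, the centre 0 and 0, and the low side 2 and 0. At chr8:74252383-74252883 it held 48 and 58 reads in 6 bins, against 1 and 2 on the low side. In both, the best single step lay at least 3000 bp from the centre on the high side.

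At the threshold, chr3:35231416-35232492, chr19:41595992-41597637 and chr19:11367661-11367892 stood just inside with a side ratio of 3.00. Just outside were chr19:38719188-38719967 with 3.00 after rounding, and chr8:73553078-73553330 and chr6:125567765-125568392 with 2.98. These 6 regions had 25 to 33 reads on the high side and 8 to 11 on the low side.

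The direction chosen in 1 library was mostly found in the other, which had no part in the choice. With the 3-fold rule and a minimum of 15 applied to the Emerald-positive library alone, 561 regions were one-sided. In the Emerald-negative library the same side was higher in 464 of them (82.7%, interval 79.3 to 85.7), the opposite side in 65, and the sides were equal in 32. Among 2808 regions past the minimum but under 3-fold the same side was higher in 58.2%. Chosen in the Emerald-negative library, 421 of 502 regions (83.9%, interval 80.3 to 87.0) had the same side higher in the Emerald-positive library, against 58.4% of 2920 regions under 3-fold.

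The asymmetry was smaller in the library that did not choose. Pooled over the 561 regions, the high side held 5.61 times the reads of the low side in the choosing Emerald-positive library and 2.73 times (2.63 to 2.85) in the Emerald-negative library. For the 502 regions chosen in the Emerald-negative library the values were 5.55 and 3.10 (2.96 to 3.26). Without regions over 100 reads the ratios in the other library were 2.26 and 2.55. Of the 296 regions chosen on the sum, 214 were among the 561 and 198 among the 502, so the chosen sets are not the same. The libraries share cell line, assembly and the unstated alignment, and no input was used. A side that carries the mark and a side where more reads can be recovered therefore cannot be told apart.

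**Figure D2:**
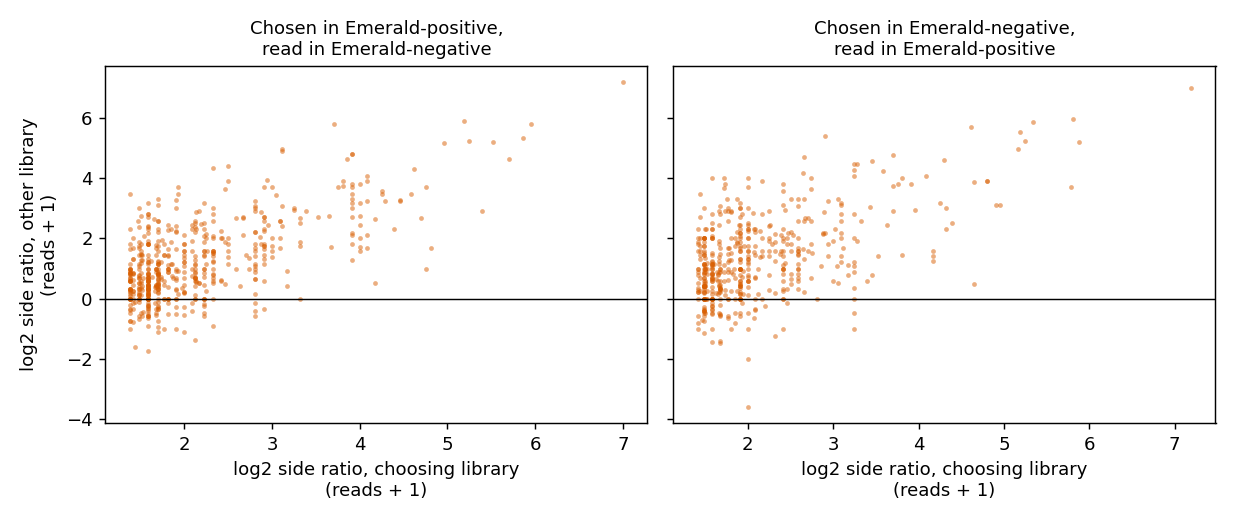
Log2 ratio of high-side to low-side reads, with 1 read added to each side, in the library that chose a region (horizontal) and in the other library (vertical). Points are the 561 regions chosen in Emerald-positive cells (left) and the 502 chosen in Emerald-negative cells (right); most lie above the horizontal line at 0, where the same side was higher.

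The centre of a one-sided region, which the rule did not use, was closer to its low side than to its high side. Within 1000 bp of the centre the signal of both libraries together averaged 0.868 per bin, against 2.17 on the high and 0.342 on the low side. The centre was 0.402 (0.385 to 0.419) of the high side and 2.53 (2.39 to 2.68) times the low side. A few heavily read regions raised it: without the 24 regions over 100 reads it was 0.270 (0.255 to 0.287) of the high side and 1.45 (1.35 to 1.56) times the low side. In comparison regions the centre lay below both sides, at 0.791 per bin against 1.37 and 0.932. The rule set the levels of the sides, so the place of the centre relative to them is partly fixed.

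Region by region, the centre lay between the sides in 163 of the 296 one-sided regions (55.1%), at or below the low side in 121 (40.9%) and at or above the high side in 12 (4.05%). Among comparison regions it lay at or below the low side in 2079 (70.9%) and between the sides in 557. The rule sets the sides against which the centre is ranked, so this contrast is partly built in. The median low side was 0.326 per bin in one-sided and 0.764 in comparison regions, and the median high side 1.55 and 1.10. The median centre itself was lower in one-sided regions, 0.404 against 0.562. Within the central 2000 bp, the part next to the high side was the higher in 162 one-sided regions (54.7%) and the lower in 89 (30.1%). In comparison regions these shares were 49.3% and 44.2%. The centre held no read in 30 one-sided regions (10.1%) and in 2.32% of comparison regions.

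The fall did not follow the edges of the deposited regions closely in means that include heavily read regions. In the 111 one-sided regions up to 800 bp wide, the central bins outside the region averaged 1.28 on the high side and 0.494 on the low side, with 0.961 inside. In the 185 wider regions these values were 1.24, 0.543 and 0.824. In comparison regions over 800 bp wide the inside (0.684) was below both outsides (0.943 and 0.839). In those up to 800 bp wide the inside (0.918) was not below either outside (0.917 on the high and 0.818 on the low side). The best single step of each one-sided region, placed by Poisson likelihood over the 50 bins, had its median at 1200 bp on the high side of the centre (quartiles 2000 and 400 bp, both on the high side). It lay within 1000 bp of the centre in 118 regions (39.9%) and inside the deposited region in 51 (17.2%). It lay beyond 1000 bp on the high side in 158 and on the low side in 20. The rule fixes part of the place of the step, and no such shares were computed for comparison regions. These counts are therefore a description.

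For steps within 1000 bp of the centre, the level on both sides was read in the library that did not place the step. With the step placed in the Emerald-positive library of 86 regions, Emerald-negative signal averaged 1.44 per bin from 1000 to 200 bp before the step, 1.17 in the last 200 bp before it, 0.492 in the first 200 bp after it and 0.248 from there to 1000 bp. With the step placed in the Emerald-negative library of 97 regions, Emerald-positive signal was 1.37, 1.02, 0.266 and 0.191. The bins next to the step differed by 2.38 times (1.68 to 3.43) and 3.83 times (2.40 to 6.35). Heavily read regions carried much of this difference. Without regions over 100 reads or with 50% of the high side in 1 bin, the bins next to the step averaged 0.534 and 0.380 in Emerald-negative cells (76 regions) and 0.482 and 0.261 in Emerald-positive cells (86 regions). These differed by 1.41 times (0.874 to 2.29) and 1.85 times (1.05 to 3.36), so the width of the fall was not resolved at this depth. From 1000 to 200 bp before the step these regions averaged 0.769 and 0.763, and from 200 to 1000 bp after it 0.205 and 0.179. Sonicated fragments were 150 to 450 bp long, per the labels. The size of the fall was partly fixed by the choice of regions, and only its place came from a separate library.

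**Figure D3:**
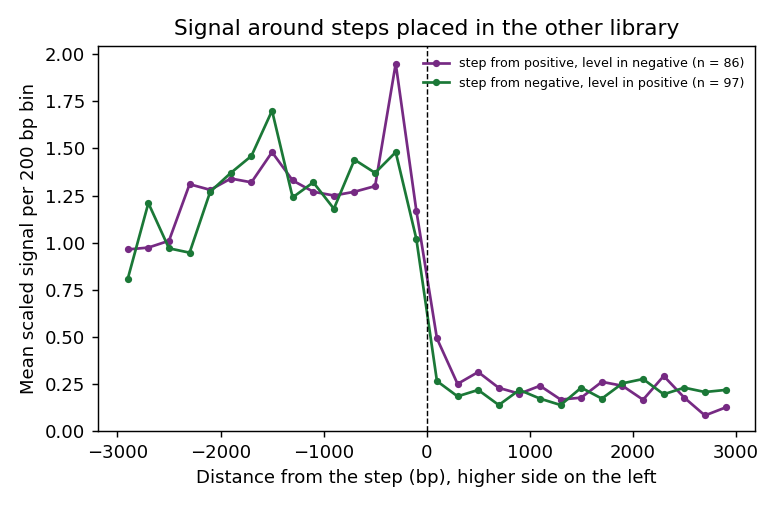
Mean scaled signal per 200 bp bin against distance from the best single step, for one-sided regions whose step lay within 1000 bp of the centre. The step was placed in 1 library and the signal read in the other (purple, Emerald-negative signal, 86 regions; green, Emerald-positive signal, 97 regions); both fall between the bins on either side of the dashed line, with heavily read regions included.

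The sides did not differ in the same way beyond the window. For 81 one-sided regions another region lay 10 to 50 kb away on each side, with a window that shares no read with theirs. The nearest region on the high side was the more marked in 39 (48.1%, interval 36.9 to 59.5) and that on the low side in 42. In 418 comparison regions the neighbour on the larger side was the higher in 52.4%. The median signal per 10 kb window was 21.1 on the high and 17.7 on the low side of one-sided regions, with wide and overlapping quartiles (11.2 to 35.0 and 11.2 to 36.8). Taking all regions at 10 to 20, 20 to 50, 50 to 100, 100 to 200 and 200 to 500 kb, the ratio of the high-side to the low-side median was 1.02, 0.967, 1.02, 1.04 and 1.09. The interval of the share for 81 regions still allows a difference in either direction, so a lasting difference at some regions was not detectable at this number.

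One-sided regions lay in less marked surroundings than comparison regions with the same total. Over the regions 50 to 500 kb away, where at least 3 were present (269 one-sided and 2483 comparison regions), the median level was 16.2 (quartiles 12.8 and 23.8) around one-sided and 22.0 (15.5 and 31.0) around comparison regions. Around every 5th autosomal region it was 14.5 (10.5 and 20.9). One-sided windows themselves held a median of 41.8 and comparison windows 42.9, while the ordinary autosomal window held 16.2. The surroundings of one-sided regions were therefore near the ordinary level although their own windows were not. The spread within each set was large and the quartiles overlapped.

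**Figure D4:**
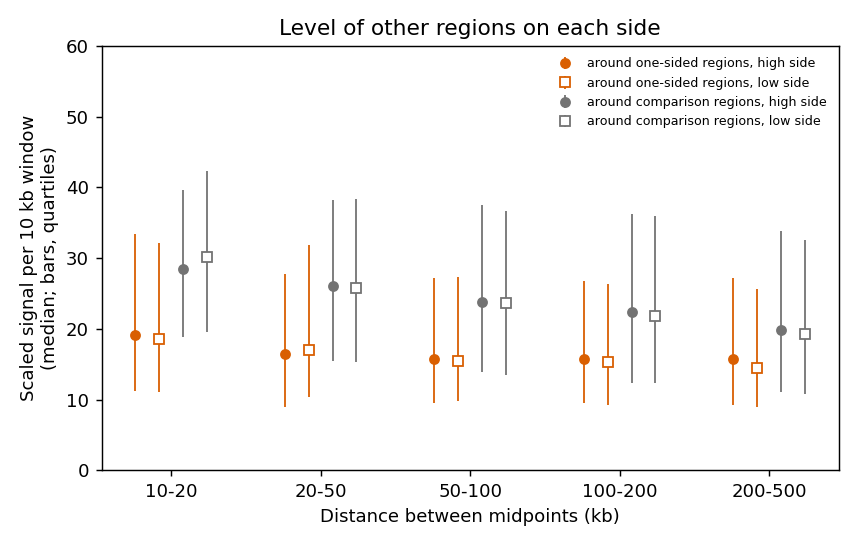
Median scaled signal per 10 kb window, with quartiles as bars, of other regions on the high side (filled circles) and the low side (open squares) by distance between midpoints. Orange marks the surroundings of one-sided and grey those of comparison regions; the 2 sides lie close together at each distance, and the orange medians lie below the grey ones.

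One-sided regions had closer neighbours than comparison regions. Another region lay under 10 kb away from 129 of them (43.6%, interval 37.9 to 49.4), from 24.3% (22.7 to 25.9) of comparison regions and from 46.8% of all autosomal regions. Put the other way, 15.3% of the regions past the minimum with such a neighbour were one-sided, against 6.99% of those without. A median of 14 regions lay within 500 kb of a one-sided region, 9 of a comparison region and 16 of every 5th autosomal region. One-sided regions were thus spaced more like ordinary regions than like comparison regions. Widths overlapped broadly, with medians of 974 and 1086 bp.

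In 23 cases the next one-sided region was under 10 kb away, so that the windows shared reads. The high sides pointed the same way in 12 pairs, toward each other in 9 and away from each other in 2. In the 12, midpoints lay only 781 to 1538 bp apart, so their windows largely coincided and their shared direction was not independent. In the 9 (3310 to 7396 bp apart), a read between the regions can count on both high sides. Pairs pointing at each other enclose higher signal between low outer flanks, and the following were named after their values were seen. Between chr6:117870506-117872091 and chr6:117877953-117878264, whose midpoints were 6810 bp apart, the high sides held 41 and 42 reads and the outer sides 0 and 1. Between chr11:120206154-120207098 and chr11:120211004-120211818 (4785 bp) the high sides held 40 and 54 reads and the outer sides 7 and 2. Between chr8:49283110-49284141 and chr8:49287742-49288892 (4692 bp) the inner reads, 23 and 24, were spread over 15 bins each. The facing pair with the most reads, chr12:70457362-70458538 and chr12:70464927-70465184, had 85 on each high side, but in only 4 bins.

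One-sided regions occurred on all 19 autosomes. Their share of the regions past the minimum ran from 3.92% on chromosome 10 (6 of 153) to 15.7% on chromosome 19 (13 of 83). Chromosome 8 had the most, 41, with 467 regions past the minimum, a share of 8.78%. By signal over both sides, the share was 9.54%, 8.55%, 6.57% and 12.0% from the lowest to the highest quartile. Within 500 kb of the first region of a chromosome 7 of 40 (17.5%) were one-sided, within 1000 kb 7 of 50 (14.0%) and within 5000 kb 17 of 194 (8.76%). From the last region the counts were 3 of 29 (10.3%), 4 of 35 (11.4%) and 14 of 130 (10.8%). In the first 2 twentieths of the table, whose order is not explained in the sources used here, 6.77% and 4.09% were one-sided, against 18.1% in the eighth, the highest.

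The populations differed little in the pooled level of the high side. Pooled, the scaled signal of the high side was 1.07 times as high in Emerald-positive as in Emerald-negative cells (1.03 to 1.11). The rule itself favours this, because an Emerald-positive read counts 1.24 times as much in the sum, and the larger side of comparison regions was 1.03 times as high (1.02 to 1.05) for the same choice. With 317 regions chosen and turned by recovered reads, where a read of either library has the same weight, the ratio was 1.05 (1.01 to 1.09) against 1.00 (0.987 to 1.01). By that choice 170 high sides (53.6%) were above and 147 below equal signal, against 50.4% above in 3067 comparison regions. At the centre the ratio was 0.989 (0.916 to 1.07) and on the low side 0.985 (0.904 to 1.07), both with intervals that hold 1. There is no replicate library against which a difference of this size could be set.

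Few single regions differed by 2-fold. With 1 read added to each library, the high side reached 2-fold or more above the Emerald-negative level at 19 one-sided regions (6.42%) and 2-fold or more below it at 7 (2.36%). Over all 3229 regions past the minimum these shares were 6.53% and 4.00%, so the first is near the background.

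The largest difference was at chr1:84856931-84857887, where the high side held 26 reads of the Emerald-positive and 3 of the Emerald-negative library, a scaled ratio of 10.8 (3.30 to 55.6). There 56.3% of the high side lay in 1 bin. At chr16:28939042-28940728 the reads were 21 and 5, spread over 14 bins (5.22, 1.92 to 17.7). The next were chr14:21297632-21299336 (21 and 6), chr7:56944055-56945059 (29 and 9) and chr1:41196771-41197722 (21 and 7). In the opposite direction, chr17:83749575-83751720 had 6 and 24 reads (0.311, 0.104 to 0.780) and chr18:76834351-76834980 had 10 and 35 over 15 bins (0.355, 0.157 to 0.733). They were followed by chr10:42184116-42185656 and chr9:53068535-53069441 (7 and 22 each) and chr5:144924684-144925497 (10 and 27). These regions were picked as the extremes of 296, so their intervals do not describe a region named in advance.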

How the data were processed

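Per the file headers, the deposited table holds scaled H3K9me2 signal for 1 Emerald-positive and 1 Emerald-negative library in 50 bins of 200 bp around 23946 regions. All values were whole multiples of 1.12 or 0.902 within 0.02, from which scaling of each library by 1 constant was inferred. Taking 1 step as 1 read gave the recovered reads (219416 and 270338 over all windows). The build is mm9 per the submitters' processing notes. Not given in the sources used here are the aligner, the treatment of duplicates, the total used for scaling and how the regions were found. No input was used here, so copy number, read recovery and the mark cannot be told apart.

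Sides, centre, best step (Poisson likelihood), neighbours and exact binomial intervals were computed with Python 3.11.15, numpy 2.4.6, pandas 2.3.3 and scipy 1.17.1. Figures used matplotlib 3.10.9. The functions were tested on simulated data. Regions named are the 10 with most reads, the 10 with the largest side ratio from 60 reads, 3 on each side of the threshold and 5 at each extreme of the population ratio. A region whose window overlaps one already named under the same part of this rule was not named, while the 296 members include overlapping windows. The members and measures were chosen with earlier results of these data known.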

Additional observations from a re-analysis of the deposited data

Results flagged for a closer look

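The same rule applied outside the autosomes found one-sided signal on chromosome X. Of 607 regions on the sex chromosomes 13 reached the minimum, and 6 of these, all on X, were one-sided (46.2%, against 9.17% on the autosomes). They held 32 to 121 reads over both sides, the lower end being set by the minimum. They drew attention because they lie outside the regions analysed in the report. The share rests on only 13 regions. Some of the one-sided ones lay near each other, with starts at 166423119 and 166444815, and at 12782935 and 12992914. At chrX:72918329-72919416 the high side held 34 Emerald-positive and 50 Emerald-negative reads against 3 and 1 on the low side. At chrX:12992914-12993818 the reads were 21 and 9 against 1 and 5.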

How the results depend on the processing

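The number of one-sided regions, 296, followed the rule: it was 769 at 2-fold, 146 at 5-fold, 953 with a minimum of 20, 67 with a minimum of 50 and 170 with sides read from the outer bins only. For regions chosen in Emerald-positive cells, the share with the same side higher in the other library was 87.1% with a minimum of 20, 77.9% with a minimum of 10 and 74.4% at 2-fold, and the pooled side ratio was 3.57, 2.29 and 1.91. For regions chosen in Emerald-negative cells the shares were 94.0%, 80.2% and 75.8% and the ratios 4.97, 2.58 and 2.07. Leaving out regions over 100 reads, which was tried after seeing the data, the ratios were 2.26 and 2.55. The centre was 0.366 of the high side and 2.30 times the low side within 500 bp, 0.260 and 1.24 by medians over regions, 0.270 and 1.45 without rows over 100 reads, and 0.287 and 1.50 without heavily read or single-bin regions, the last added after seeing the data. The count of regions with a 2-fold lower high side in Emerald-positive cells was 4 with 2 reads added to each library. The bins next to the step differed by 1.41 and 1.85 times without heavily read or single-bin regions, also added after seeing the data. Of 70 alternatives to these results 40 stayed within the interval or within 1.5 times the count, 30 moved and 0 reversed. Among 90 values for 30 named regions 1 reversed: chr16:3349892-3351627, at -0.13 with all bins up to the centre. Another 7 moved: with all bins the log2 side ratio went from 5.67 to 3.32 at chr8:72078339, from 6.89 to 2.63 at chr2:181653284, from 6.24 to 2.34 at chr4:146961207 and from 1.47 to 0.37 at chr6:125567765. With outer bins only it went to 4.56 at chr2:181653284, from 2.38 to 5.19 at chr2:151319984 and from 4.11 to 2.11 at chr1:84856931. The cause of these shifts was not tested, except that heavily read regions raise pooled values. No paired analysis was possible because there is only 1 library in each population, and leaving out a library would leave none. The limit for a single region is its depth, a median of 31 reads on the high and 7 on the low side.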

Other observations

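At few regions the libraries were one-sided in opposite directions. Among the regions chosen in Emerald-positive cells, 504 had at least 10 reads on the sides in the Emerald-negative library. There the same side was at least 3 times the other in 203, and the opposite side in 3. For those chosen in Emerald-negative cells the counts were 184 and 3 of 401. One region, chr18:81816940-81818197, was among both, with 18 reads against 6 in Emerald-positive and 7 against 23 in Emerald-negative cells on the same sides. At chr15:65048906-65050744 the Emerald-negative library had 15 reads against 3 and the Emerald-positive library 0 against 11. These regions were singled out after their values were seen, from the 561 and 502 chosen, and carry no test.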
